A study of Mus musculus with 18 samples.

Results

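The genes described here are 41 mouse genes of cholesterol and fatty acid synthesis, of its control and of sterol transport, chosen by their known roles, with earlier results of these data in view. All 41 were in the table of 27997 genes. RNA was sequenced from adherent neural stem cell (NSC) cultures and from astrocytes differentiated from them, in 3 lines with 3 replicates per line and fate, 18 libraries in all. The tdTomato line (genotype given as DNGR-1 +/- Tom+/-) and the EYFP line (DNGR-1 +/- EYFP+/-) came from spinal cord neurospheres, from which cells were sorted whose history of expressing DNGR-1, a dendritic cell receptor, had been marked by a Cre that switched on the reporter. The third line (DNGR-1+/+) came from the hippocampus of a mouse with a Glast Cre, a floxed Huwe1 allele and an EYFP reporter. NSCs were harvested on day 4 in medium with bFGF, EGF, heparin, laminin and N-2 supplement. Astrocytes were harvested on day 6, after that medium had been replaced by DMEM:F12 with BMP4 at 20 ng/ml, so the effects of BMP4, of the loss of the growth factors and supplement and of the later harvest cannot be told apart. The replicates were passages 10, 11 and 12, each group is 1 line, and the p-values measure only the spread between passages. Region of origin, sorting, Cre driver, Huwe1 allele and donor cannot be told apart in any comparison of the hippocampal with the traced lines.

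Cells make cholesterol from acetyl-CoA through mevalonate, isoprenoid units, squalene and a series of sterol intermediates. When membrane sterol is low, SCAP carries the SREBP transcription factors to the Golgi, where they are cut and released to switch on the enzymes of the route. When sterol is high, INSIG proteins hold them back in the endoplasmic reticulum, and oxysterols activate the LXR receptors, which switch on export through ABCA1. In the brain, which makes its own cholesterol, astrocytes are a main source of the sterol that neurons use.

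Values below are the deposited log2 values, relative to library size, in which 1 unit is a 2-fold step. They are not divided by gene length, so a gene is compared with itself across libraries and not with another gene. A difference was called when limma's adjusted p, over the 15448 genes with a value of at least 10 on the linear scale in at least 3 libraries, was under 0.05. The filter kept 40 of the 41 members and dropped Abcg1, a sterol exporter, whose values lay between 0.65 and 2.51. The log2 of the summed level of 9 proliferation genes was 15.0 to 15.4 in NSCs and 11.6 to 11.9 in astrocytes, that of 7 astrocyte genes was 14.5 to 15.6 in NSCs and 16.7 to 17.6 in astrocytes, and that of 4 NSC genes was 15.1 to 15.2 and 14.0 to 14.8. Of the 7 astrocyte genes 7, 6 and 6 rose in the tdTomato, EYFP and hippocampal lines. Aldh1l1 was the 1 not called in the EYFP (-0.17) and hippocampal (-0.005) lines. The NSC genes did not move as 1 group: 2 of the 4 rose and 2 fell in each traced line, and in the hippocampal line 1 rose, 1 fell and 2 were not called, with Sox2, a stem cell factor that astrocytes also express, rising in all 3 lines. Of the markers of other cells, all 4 microglial genes found were under 10 on the linear scale in all libraries, as were 2 of 3 endothelial and 3 of 5 fibroblast and pericyte genes. The 6 oligodendrocyte genes had a summed log2 level of 11.3 to 12.0 in NSCs and 12.7 to 13.4 in astrocytes, with 3 of the 6 under 10 on the linear scale in all libraries. The 5 neuronal genes stood at 7.27 to 8.15 and 8.43 to 8.87. The part of division, of neuronal or of oligodendrocyte genes in the results below was not tested, and in bulk RNA fewer cells of a type and less RNA per cell cannot be told apart. Huwe1 had group means between 13.06 and 13.32, hippocampal ones included, so its level shows no loss in that line, and a deletion that leaves the transcript in place would not be seen.

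Transcripts of most sterol synthesis enzymes fell on differentiation in all 3 lines. Of the 18 enzymes from Acat2 to Dhcr7, 18 fell in the tdTomato line, 18 in the EYFP line and 16 in the hippocampal line. The median change was -1.96, -1.44 and -1.16, beside a median over all genes tested of 0.01, 0.01 and 0.02. Over the whole set, 29, 29 and 27 of 40 members fell and 8, 8 and 8 rose. Change of either direction was common in the table: 38.5%, 37.0% and 37.3% of all genes tested fell and 39.9%, 38.2% and 39.0% rose (78.4%, 75.2% and 76.3% in either direction). Falls in each of the 3 lines were seen in 25 members, beside 27.8% of all genes, and rises in each in 6 members, beside 28.1%. The count of 8 rises in the tdTomato line was 5 without tdTomato astrocyte replicate 3. The 6 that rose in each line were Insig2, Fads2, Nr1h2, Nr1h3, Abca1 and Soat1. NSC and astrocyte libraries did not overlap in 37 of 40 tested members in the tdTomato line, 37 in the EYFP line and 35 in the hippocampal line, beside 80.4%, 77.0% and 78.6% of all genes tested.

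**Figure D1:**
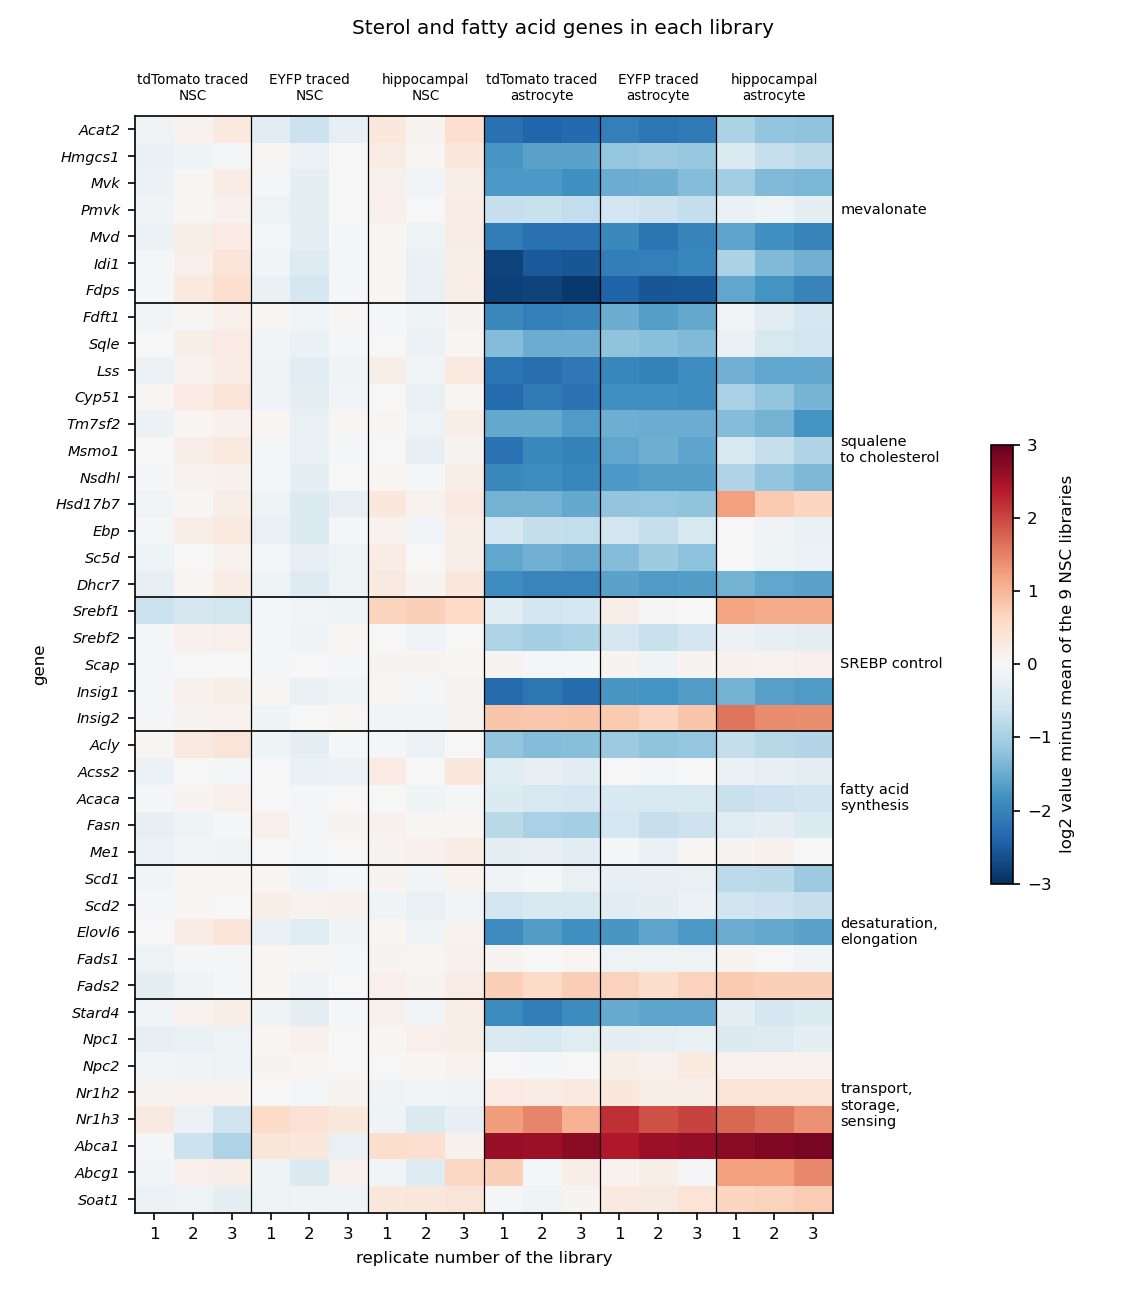
Heatmap of the 41 genes (rows, grouped by role) in the 18 libraries (columns, numbered by replicate within each line and fate). Colour gives the log2 value minus that gene's mean over the 9 NSC libraries, from blue at -3 to red at 3. The sterol enzymes are blue in astrocytes of the traced lines and most are paler in hippocampal astrocytes, where Tm7sf2 is as blue as in the EYFP line and Hsd17b7 is red, while Abca1 is red in all 9 astrocyte libraries.

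The 7 enzymes from acetyl-CoA to farnesyl diphosphate all fell in all 3 lines, with changes from -3.08 to -0.34. Fdps, which joins isoprenoid units into farnesyl diphosphate, the last shared step before sterols (GRCm38, chr3:89093588-89101959, minus strand), fell most in the traced lines. It stood at 12.29, 12.61 and 12.81 in tdTomato, 12.11, 11.81 and 12.25 in EYFP and 12.35, 12.10 and 12.51 in hippocampal NSCs. In the differentiated cultures its values were 9.51, 9.54 and 9.43 in tdTomato, 9.91, 9.74 and 9.76 in EYFP and 10.77, 10.52 and 10.32 in hippocampal astrocytes. Each astrocyte library was thus below each NSC library of any line, and the level kept was 11.8% of the NSC level in the tdTomato line, 21.0% in the EYFP line and 29.0% in the hippocampal line (changes of -3.08 ± 0.13, -2.25 ± 0.13 and -1.79 ± 0.13, SE; limma adjusted p = 5.3e-13, 4.57e-11 and 9.95e-10). Of the 75-base stretches of its transcripts, 23.5% are also found in other annotated genes, foremost Gm43738 on the same strand, so reads may be split between them. Mvd, which decarboxylates mevalonate diphosphate, measured 10.17, 10.52 and 10.57 in tdTomato, 10.30, 10.06 and 10.29 in EYFP and 10.37, 10.19 and 10.56 in hippocampal NSCs. Among astrocytes it measured 8.25, 8.09 and 8.09 in tdTomato, 8.39, 8.15 and 8.33 in EYFP and 8.75, 8.50 and 8.33 in hippocampal astrocytes. Its fall was close in size between lines (-2.28, -1.93 and -1.85), and no other annotated gene shared its sequence.

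The other enzymes of this stretch followed. Acat2, the cytosolic thiolase of the first step, changed by -2.42, -1.72 and -1.42 in the tdTomato, EYFP and hippocampal lines. Hmgcs1, which makes HMG-CoA, changed by -1.51, -1.08 and -0.82. Idi1, which isomerises the isoprenoid unit, changed by -2.80, -1.86 and -1.24. For both mevalonate kinases the falls differed in size: Mvk changed by -1.79, -1.30 and -1.33, and Pmvk by -0.72, -0.49 and -0.34. Acat2 and Idi1 share sequence with other genes: 33.9% of the 75-base stretches of Acat2 are also in Acat3, and 16.7% of those of Idi1 are in other annotated genes such as Gm13502.

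From squalene to cholesterol, all 11 enzymes fell in both traced lines, and in the hippocampal line 9 fell, 1 rose and 1 was not called. Lss, which closes the ring of lanosterol, measured 11.40, 11.69 and 11.80 in tdTomato, 11.48, 11.23 and 11.47 in EYFP and 11.76, 11.50 and 11.87 in hippocampal NSCs. In astrocytes it measured 9.38, 9.33 and 9.43 in tdTomato, 9.63, 9.56 and 9.72 in EYFP and 10.14, 10.03 and 10.01 in hippocampal astrocytes. The level kept was 21.0%, 29.6% and 31.8% of the NSC level. Cyp51, the lanosterol demethylase, measured 13.00, 13.20 and 13.33 in tdTomato, 12.84, 12.64 and 12.85 in EYFP and 12.93, 12.72 and 12.99 in hippocampal NSCs. After differentiation it measured 10.65, 10.81 and 10.72 in tdTomato, 11.11, 11.09 and 11.08 in EYFP and 11.96, 11.76 and 11.54 in hippocampal astrocytes. It kept 18.3% of its NSC level in the tdTomato line and 45.8% in the hippocampal line, with limma adjusted p of 1.53e-13 and 7.36e-09.

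Hsd17b7 and Fdft1 are described with the hippocampal comparison. In the other enzymes of this stretch the hippocampal change ranged from -1.76 to -0.19. Dhcr7, which reduces 7-dehydrocholesterol, changed by -1.95, -1.43 and -1.76 (tdTomato, EYFP, hippocampal). Tm7sf2, a sterol reductase, changed by -1.59, -1.45 and -1.53, and 12.1% of its exonic bases lie in exons of Vps51 on the same strand. Nsdhl, which acts with Msmo1 in removing the methyl groups at carbon 4, changed by -1.98, -1.56 and -1.19. These 3 fell by more than 1 unit in every line, while the next 4 changed by less than 1 unit in the hippocampal line. Msmo1 changed by -2.22, -1.42 and -0.64. Sqle, which oxidises squalene, changed by -1.57, -1.16 and -0.37. Sc5d, a sterol desaturase, changed by -1.51, -1.05 and -0.25. Ebp, the isomerase of the sterol ring, had the smallest falls in the traced lines, -0.81 and -0.35, and in the hippocampal line its difference of -0.19 was not called (adjusted p = 0.118) and its NSC and astrocyte libraries overlapped.

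**Figure D2:**
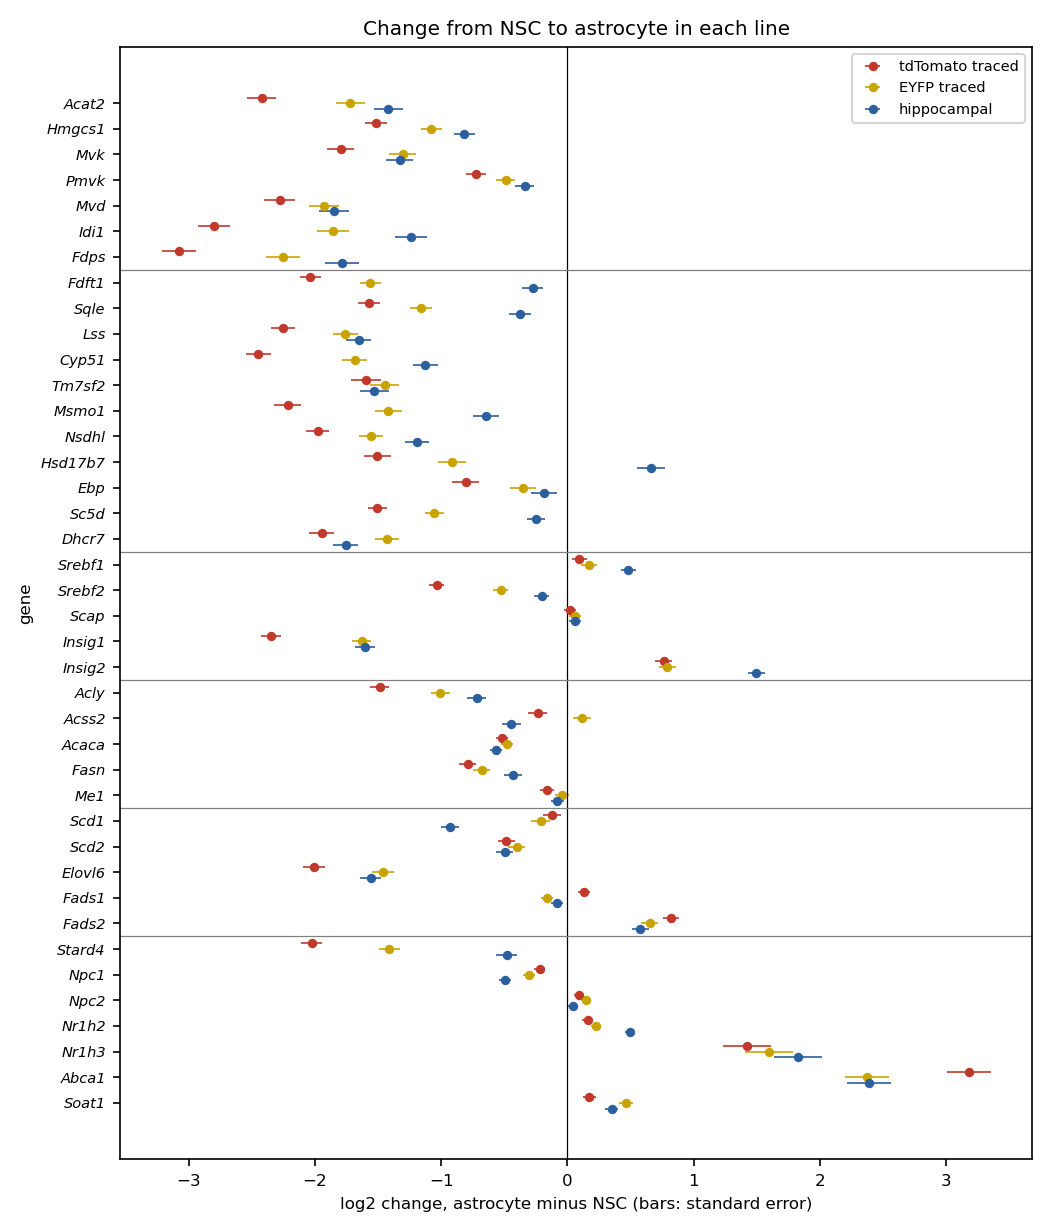
Change of each of the 40 tested genes from NSC to astrocyte (x axis, log2, astrocyte minus NSC) in the tdTomato, EYFP and hippocampal lines, with standard errors from limma as bars and genes grouped by role on the y axis. For most sterol enzymes the tdTomato point lies farthest left and the hippocampal point nearest 0, Hsd17b7 lies at 0.66 in the hippocampal line, and Insig2, Fads2, Nr1h3 and Abca1 lie right of 0 in all 3 lines.

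Because these enzymes moved together, the 250 bases before their RefSeq transcription starts (GRCm38.p6) were searched on both strands for 4 sets of letters. Windows were at hand for 32 members, 42 windows in all, of which 18 belonged to 15 of the sterol enzymes, with 3 windows for Dhcr7, 2 for Pmvk and none for Fdps, Fdft1 or Sqle. In 35 of the 42 the bases just after the start were found in an annotated transcript of the gene. Some windows overlap annotated exons, as in Msmo1 and Dhcr7, and all windows were counted. The CCAAT box, letters CCAAT, was in 77.8% of the 18 windows and in 35.4% of the 14064 windows of genes tested. The GC box, GGGCGG, was in 83.3% and 56.7%, and the E-box, CANNTG, in 66.7% and 57.4%. The strict sterol regulatory element TCACNCCAC, to which SREBPs bind, was in 1 of the 18, Hmgcs1, as TCACCCCAC from 137 to 129 bases before the start, and in 0.981% of the windows of genes tested. Over all 32851 windows the shares were 33.8% for the CCAAT box, 32.7% for the GC box, 66.2% for the E-box and 1.05% for the strict element. A match is a description of the letters and not of binding. The last 150 bases before the start are shown for 5 enzymes that fell and for Insig2 and Abca1, which rose, as examples chosen after their letters were seen. Insig2 has 3 windows in the table, and the one shown is the 1 that holds CCAAT boxes. They are printed 5′ to 3′ along the gene, with the strict element and each CCAAT box, read on either strand, in capitals.
Hmgcs1, chr13:119690201-119690350, plus strand: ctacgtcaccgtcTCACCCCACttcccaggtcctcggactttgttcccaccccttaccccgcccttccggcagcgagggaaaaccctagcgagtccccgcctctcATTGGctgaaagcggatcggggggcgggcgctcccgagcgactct
Mvk, chr5:114444119-114444268, plus strand: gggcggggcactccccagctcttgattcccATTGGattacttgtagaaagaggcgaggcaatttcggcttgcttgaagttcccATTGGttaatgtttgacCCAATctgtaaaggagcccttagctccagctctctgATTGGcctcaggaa
Mvd, chr8:122443423-122443572, minus strand: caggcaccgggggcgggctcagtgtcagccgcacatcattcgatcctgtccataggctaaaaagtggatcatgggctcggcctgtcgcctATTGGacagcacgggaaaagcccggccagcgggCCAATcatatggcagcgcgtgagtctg
Sc5d, chr9:42264301-42264450, minus strand: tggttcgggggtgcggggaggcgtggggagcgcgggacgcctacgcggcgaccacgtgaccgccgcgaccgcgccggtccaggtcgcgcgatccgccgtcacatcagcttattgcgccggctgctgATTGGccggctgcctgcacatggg
Acly, chr11:100528001-100528150, minus strand: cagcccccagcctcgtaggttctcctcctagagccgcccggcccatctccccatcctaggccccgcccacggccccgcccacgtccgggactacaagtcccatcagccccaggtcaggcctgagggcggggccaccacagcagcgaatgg
Insig2, chr1:121332590-121332739, minus strand: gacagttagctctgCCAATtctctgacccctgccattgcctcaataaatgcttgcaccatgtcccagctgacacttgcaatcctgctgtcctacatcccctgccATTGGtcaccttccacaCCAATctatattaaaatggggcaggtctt
Abca1, chr4:53159896-53160045, minus strand: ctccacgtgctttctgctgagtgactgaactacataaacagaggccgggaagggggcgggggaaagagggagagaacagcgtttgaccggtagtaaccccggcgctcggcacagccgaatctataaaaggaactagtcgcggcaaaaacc
Of those that fell, Mvk held 4 CCAAT boxes in this stretch, Mvd held 2, Hmgcs1 and Sc5d held 1 each, and Acly held 0. Of those that rose, Insig2 held 3 and Abca1 held 0.

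Among the genes that control SREBP, both INSIG genes went opposite ways. Insig1, itself a target of SREBP, measured 12.62, 12.81 and 12.87 in tdTomato, 12.73, 12.46 and 12.56 in EYFP and 12.72, 12.65 and 12.76 in hippocampal NSCs. Its astrocyte values were 10.37, 10.52 and 10.38 in tdTomato, 10.94, 10.90 and 11.02 in EYFP and 11.27, 11.06 and 10.99 in hippocampal astrocytes, below every NSC library. It kept 19.7%, 32.3% and 32.9% of the NSC level (limma adjusted p = 1.35e-14, 2.22e-12 and 2.3e-12). Insig2, which has the same role at the protein level, measured 9.07, 9.19 and 9.22 in tdTomato, 8.98, 9.10 and 9.14 in EYFP and 9.03, 9.02 and 9.20 in hippocampal NSCs. In every astrocyte library it was higher, at 9.93, 9.90 and 9.94 in tdTomato, 9.90, 9.76 and 9.94 in EYFP and 10.71, 10.53 and 10.50 in hippocampal astrocytes. The rise was 1.70-fold in the tdTomato line, 1.73-fold in the EYFP line and 2.82-fold in the hippocampal line (limma adjusted p = 1.03e-08, 7.28e-09 and 8.2e-13).

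Of the transcription factors, Srebf2, which drives mainly the cholesterol genes, fell with the enzymes, with changes of -1.03 ± 0.058, -0.53 ± 0.058 and -0.20 ± 0.058 in the tdTomato, EYFP and hippocampal lines. Srebf1, which drives mainly the fatty acid genes, measured 10.05, 10.19 and 10.16 in tdTomato, 10.66, 10.62 and 10.56 in EYFP and 11.36, 11.41 and 11.29 in hippocampal NSCs. Its astrocyte values were 10.36, 10.14 and 10.18 in tdTomato, 10.90, 10.73 and 10.72 in EYFP and 11.89, 11.80 and 11.82 in hippocampal astrocytes. The order of the lines, with tdTomato lowest and hippocampal highest, held in both fates with no overlap. The changes were 0.48 in the hippocampal line (adjusted p = 9.66e-07), 0.17 in the EYFP line (adjusted p = 0.0165, or 0.0641 without EYFP NSC replicate 3 and 0.111 without EYFP astrocyte replicate 1, all by limma) and 0.09 in the tdTomato line, not called. Scap differed between fates by 0.02, 0.06 and 0.06, called in no line. The table reads transcripts, and the cleavage that activates both factors is not measured.

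Enzymes of fatty acid synthesis had smaller median changes than the sterol enzymes. Of 5, the number that fell was 5 in tdTomato, 3 in EYFP and 4 in hippocampal cells, beside 38.5%, 37.0% and 37.3% of all genes tested. The median changes were -0.52, -0.48 and -0.44. Acly, which supplies cytosolic acetyl-CoA to both routes, measured 13.22, 13.45 and 13.58 in tdTomato, 13.06, 12.92 and 13.12 in EYFP and 13.12, 13.00 and 13.17 in hippocampal NSCs. In astrocytes it stood at 12.00, 11.88 and 11.91 in tdTomato, 12.10, 11.97 and 12.02 in EYFP and 12.46, 12.36 and 12.31 in hippocampal astrocytes. It kept 35.7%, 49.8% and 60.8% of the NSC level. Fasn, which builds palmitate, measured 13.48, 13.60 and 13.68 in tdTomato, 13.88, 13.67 and 13.81 in EYFP and 13.86, 13.76 and 13.77 in hippocampal NSCs. Its astrocyte values were 12.92, 12.75 and 12.71 in tdTomato, 13.20, 13.03 and 13.10 in EYFP and 13.35, 13.43 and 13.32 in hippocampal astrocytes. The changes were -0.79, -0.68 and -0.43, and the libraries of both fates did not overlap in any line. Acaca, which makes malonyl-CoA, fell in all 3 lines, with changes of -0.52, -0.48 and -0.57, and 26.8% of its 75-base stretches are also in other annotated genes. Acss2, which makes acetyl-CoA from acetate, fell in the tdTomato (-0.24, lost with each library centred on its median, limma adjusted p = 0.0588) and hippocampal (-0.44) lines and had a difference of 0.11, not called, in the EYFP line. Me1, a source of NADPH, fell only slightly in the tdTomato line (-0.16, adjusted p = 0.0107 by limma, 0.0514 without tdTomato astrocyte replicate 3 and 0.193 with each library centred on its median) and was called in neither other line.

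The enzymes that lengthen and desaturate fatty acids split. Elovl6, the elongase of palmitate, measured 11.84, 12.06 and 12.21 in tdTomato, 11.63, 11.48 and 11.73 in EYFP and 11.90, 11.73 and 11.93 in hippocampal NSCs. It dropped to 9.94, 10.16 and 10.00 in tdTomato, 10.10, 10.25 and 10.10 in EYFP and 10.35, 10.31 and 10.22 in hippocampal astrocytes, a change of -2.01, -1.46 and -1.56, within the range of the sterol enzymes. Fads2, the first desaturase of the polyunsaturated route, went the other way. It measured 12.87, 13.03 and 13.10 in tdTomato, 13.19, 13.04 and 13.15 in EYFP and 13.30, 13.23 and 13.37 in hippocampal NSCs. Astrocyte libraries stood at 13.86, 13.71 and 13.89 in tdTomato, 13.84, 13.67 and 13.82 in EYFP and 13.92, 13.87 and 13.85 in hippocampal astrocytes, above every NSC library, a rise of 1.77-fold, 1.57-fold and 1.49-fold (limma adjusted p = 2.13e-09, 5.54e-08 and 2.5e-07). Its neighbour in the route, Fads1, had small changes of 0.13, -0.16 and -0.08, called as a rise in the tdTomato line, as a fall in the EYFP line and in neither direction in the hippocampal line. The rise of Fads1 was lost without tdTomato NSC replicate 1 or tdTomato astrocyte replicate 1 or 3 (limma adjusted p = 0.0826, 0.0635 and 0.0505). It was also lost with quantile normalisation (limma adjusted p = 0.0908). Of the stearoyl-CoA desaturases, which make oleate, Scd2 fell in all 3 lines (-0.48, -0.40 and -0.50). Scd1 measured 13.38, 13.50 and 13.52 in tdTomato, 13.54, 13.34 and 13.45 in EYFP and 13.55, 13.40 and 13.58 in hippocampal NSCs. Its astrocyte values were 13.37, 13.41 and 13.26 in tdTomato, 13.22, 13.23 and 13.25 in EYFP and 12.69, 12.66 and 12.39 in hippocampal astrocytes, so hippocampal astrocytes stood below all other libraries, with a change of -0.93 beside -0.12, not called, and -0.21 in the traced lines. The EYFP call on Scd1 was lost without EYFP NSC replicate 1 (limma adjusted p = 0.0758) and with each library centred on its median (0.057).

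In sterol handling, Abca1, the exporter of cholesterol to lipoproteins (GRCm38, chr4:53030787-53159895, minus strand), had the largest rise of the 40 tested members in every line. It measured 10.95, 10.37 and 10.09 in tdTomato, 11.38, 11.34 and 10.79 in EYFP and 11.54, 11.53 and 11.13 in hippocampal NSCs. In astrocytes it stood at 13.63, 13.59 and 13.73 in tdTomato, 13.42, 13.57 and 13.65 in EYFP and 13.72, 13.78 and 13.87 in hippocampal astrocytes. The rise was 9.05-fold in the tdTomato line, 5.19-fold in the EYFP line and 5.24-fold in the hippocampal line (limma adjusted p = 1.23e-11, 7.95e-10 and 6.47e-10). Nr1h3, which encodes the sterol receptor LXR alpha, was weakly expressed, at 4.56, 4.12 and 3.69 in tdTomato, 4.86, 4.74 and 4.60 in EYFP and 4.16, 3.87 and 4.05 in hippocampal NSCs. It rose to 5.54, 5.76 and 5.34 in tdTomato, 6.49, 6.20 and 6.32 in EYFP and 6.03, 5.88 and 5.67 in hippocampal astrocytes, with changes of 1.43 ± 0.19, 1.60 ± 0.19 and 1.83 ± 0.19 that may be understated if, as in a regularized log, weak genes were drawn towards their mean. Nr1h2, encoding LXR beta, rose by 0.16, 0.23 and 0.50. Soat1, which esterifies cholesterol for storage, rose by 0.17, 0.46 and 0.35, the first lost without tdTomato astrocyte replicate 3 (limma adjusted p = 0.0511). Stard4, a cytosolic sterol carrier, fell, with changes of -2.02, -1.41 and -0.48. Both genes of lysosomal cholesterol release had small changes: Npc1 fell, with changes of -0.22, -0.30 and -0.49, and Npc2 rose by 0.15 in the EYFP line and by 0.09 in the tdTomato line, the latter at an adjusted p of 0.0495 by limma that did not hold without a filter (0.0769) or without tdTomato NSC replicate 3 (0.164).

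**Figure D3:**
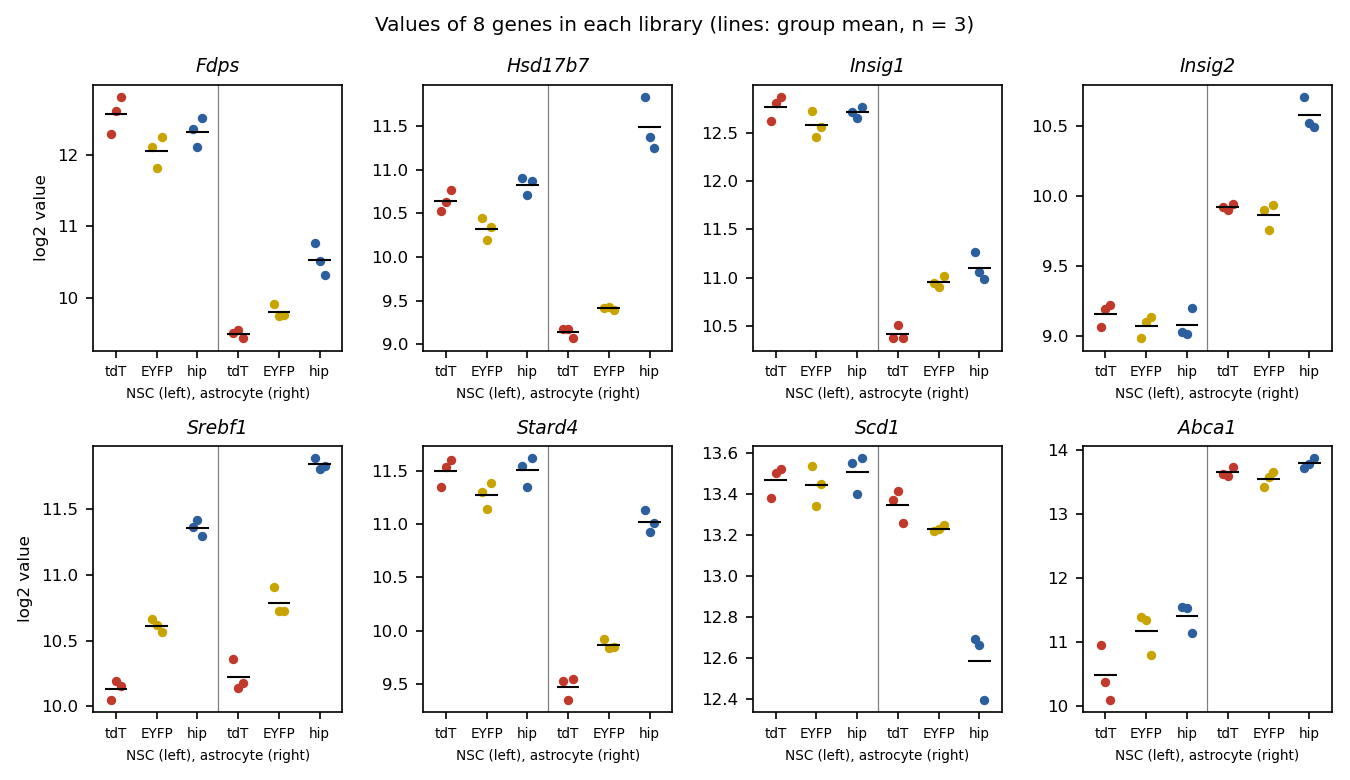
Log2 values (y axis, a separate range for each gene) of Fdps, Hsd17b7, Insig1, Insig2, Srebf1, Stard4, Scd1 and Abca1 in every library of the tdTomato (tdT), EYFP and hippocampal (hip) lines, with NSCs left and astrocytes right of the grey line. Points are libraries and black bars are group means (n = 3). In hippocampal astrocytes Hsd17b7 lies above all NSC libraries and Scd1 below all other libraries.

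The next comparison asked whether the hippocampal line differed from the traced lines, taken as the mean of the tdTomato and EYFP lines. In NSCs 16 of 40 members differed, 14 higher and 2 lower in the hippocampal line, beside 14.9% and 17.0% of all genes tested (31.9% in all). Srebf1 differed most, higher by 0.98 ± 0.052 (limma adjusted p = 7.94e-11), followed by Abca1 (0.58, adjusted p = 0.0066) and Soat1 (0.53, adjusted p = 5.83e-08). Soat1 stood at 11.71, 11.73 and 11.78 in hippocampal NSCs, above the 6 traced NSC libraries, which lay at 11.21, 11.23 and 11.10 in the tdTomato line and 11.23, 11.27 and 11.23 in the EYFP line. Hippocampal Abca1 overlapped with that of the EYFP line. Of the 18 sterol enzymes 6 were higher and 0 lower, and the median difference was 0.10. The count of 6 was 3 without hippocampal NSC replicate 1 or hippocampal NSC replicate 3.

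In astrocytes the gap was wider. There 32 of 40 members differed, 29 higher and 3 lower in the hippocampal line, beside 31.9% and 27.9% of all genes (59.7% in all). Of the 18 sterol enzymes 17 were higher, all but Tm7sf2, with a median difference of 0.80. The calls on Mvd and Dhcr7 among them were lost without hippocampal astrocyte replicate 1 (limma adjusted p = 0.149 and 0.0683), which left 15. The 3 lower members were Scd1 (-0.71), Scd2 (-0.26) and Acaca (-0.16). Hsd17b7, the ketoreductase of the demethylation at carbon 4 (GRCm38, chr1:169949535-169969241, minus strand), differed most, by 2.21 ± 0.095 or 4.64-fold. It measured 10.52, 10.63 and 10.77 in tdTomato, 10.44, 10.19 and 10.34 in EYFP and 10.91, 10.71 and 10.87 in hippocampal NSCs, then 9.17, 9.17 and 9.07 in tdTomato, 9.42, 9.43 and 9.39 in EYFP and 11.84, 11.38 and 11.25 in hippocampal astrocytes. It was thus the 1 sterol enzyme that rose in the hippocampal line, 1.58-fold (limma adjusted p = 2.65e-05), while it fell to 35.3% and 53.1% of the NSC level in the traced lines. No other annotated gene overlaps its exons or shares its 75-base stretches.

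Fdft1, squalene synthase, was the next, at 12.16, 11.90 and 11.74 in hippocampal astrocytes beside 10.31, 10.19 and 10.24 in tdTomato and 10.75, 10.59 and 10.71 in EYFP astrocytes, a difference of 1.47 ± 0.072. Its change in the hippocampal line was -0.28 (limma adjusted p = 0.00621, 0.0528 without hippocampal astrocyte replicate 3), and its libraries of both fates overlapped there. The end of Ctsb, a lysosomal protease gene on the opposite strand, covers 18.3% of the exonic bases of Fdft1. Ctsb was itself higher in hippocampal than in traced astrocytes by 1.31 and rose by 1.51, 1.53 and 2.67 in the tdTomato, EYFP and hippocampal lines. How strand was used in counting is not given in the sources used here, and the part of Ctsb reads in the Fdft1 values was not tested. Stard4 differed by 1.35 ± 0.072, at 11.13, 10.92 and 11.01 in hippocampal, 9.52, 9.35 and 9.55 in tdTomato and 9.92, 9.84 and 9.84 in EYFP astrocytes. Acat2 was higher by 1.11, and Acat3, with which it shares sequence, by 4.53, so that the part of Acat3 reads in this difference was not tested either.

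The changes themselves differed accordingly. In 25 of 40 members the change of the hippocampal line differed from the mean change of the traced lines, 22 of them in the upward direction and 3 (Scd1, Acss2 and Npc1) in the downward, beside 25.9% and 20.3% of all genes (46.2% in all). Of the 18 sterol enzymes 14 had a more positive change, with a median of 0.61 beside 0.03 over all genes. That count was 11 without hippocampal NSC replicate 2 or hippocampal astrocyte replicate 1, and 12 with each library centred on its median. Hsd17b7 differed by 1.87 ± 0.13 (limma adjusted p = 5.72e-09), Fdft1 by 1.52 ± 0.10 (adjusted p = 2.63e-09) and Stard4 by 1.23 ± 0.10 (adjusted p = 3.06e-08). The 4 enzymes without a called difference were Mvk, Mvd, Tm7sf2 and Dhcr7, at 0.22, 0.26, -0.01 and -0.07. Insig2 rose more in the hippocampal line, by 0.72, as Insig1 fell less, by 0.38. Abca1 had a difference of -0.39 ± 0.21 that was not called.

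The last comparison was between both traced lines, which share the tissue and the tracing. In NSCs 15 members differed, 9 higher and 6 lower in the tdTomato line, beside 16.4% and 14.9% of all genes (31.4% in all). The count rested on single libraries: it was 23 without tdTomato NSC replicate 1, and 9 without tdTomato NSC replicate 2, tdTomato NSC replicate 3 or EYFP NSC replicate 2. Among the 18 sterol enzymes 7 were higher and 0 lower in tdTomato NSCs, with a median of 0.24. These 7 became 12 without tdTomato NSC replicate 1, and 2 without tdTomato NSC replicate 3 or EYFP NSC replicate 2. Abca1 was lower in tdTomato NSCs by 0.70 ± 0.17 (limma adjusted p = 0.00559), Nr1h3 was lower by 0.61 (adjusted p = 0.0204) and Fdps was higher by 0.52 (adjusted p = 0.00754). The call on Fdps was lost without tdTomato NSC replicate 3 or EYFP NSC replicate 2 (limma adjusted p = 0.0549 and 0.0517). That on Nr1h3 was lost without any one of tdTomato NSC replicates 2 and 3 and EYFP NSC replicates 1 and 2 (0.0527 to 0.136).

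Of 20 members that differed in astrocytes, 1 (Fads1) was higher and 19 were lower in the tdTomato line, beside 7.06% and 7.31% of all genes (14.4% in all). Nr1h3 and Srebf1 were lower in tdTomato cells of both fates. In astrocytes Nr1h3 was lower by 0.79 ± 0.19, Idi1 by 0.60 ± 0.13 and Srebf1 by 0.56 ± 0.060 (limma adjusted p = 0.00814, 0.00323 and 4.29e-06). Idi1 stood at 9.27, 9.52 and 9.47 in tdTomato and 9.98, 9.99 and 10.08 in EYFP astrocytes, with no overlap. The sterol enzymes with a called difference numbered 7, all lower in the tdTomato line, or 12 with only the groups compared in the fit, and the median of the 18 was -0.27.

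The change of the tdTomato line differed from that of the EYFP line in 23 members, 21 of them downward and 2 (Abca1 and Fads1) upward, beside 6.98% and 6.36% of all genes (13.3% in all), and 14 of the 18 sterol enzymes were among the 21. Idi1 fell by 0.94 more (SE 0.18, limma adjusted p = 0.00232) and Fdps by 0.83 more (SE 0.19, adjusted p = 0.00816). Abca1 rose by 0.80 more (SE 0.25), at an adjusted p of 0.0397 by limma. This call on Abca1 did not hold with only these groups fitted (0.0648), with no filter (0.0747), with no variance trend (0.0756), or when any single library of these lines other than tdTomato NSC replicate 1 and EYFP NSC replicate 3 was left out (up to 0.117). The count of 23 members fell to 14, and that of 14 sterol enzymes to 7, without tdTomato NSC replicate 3 or without EYFP NSC replicate 2.

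Some of the libraries that moved these counts stood out in the sterol enzymes. Within each NSC group, 1 library held the lowest value of all 18 enzymes: tdTomato replicate 1, EYFP replicate 2 and hippocampal replicate 2. Over all genes tested the lowest value fell in those libraries for 40.0%, 36.7% and 36.6% of genes. The highest value was in tdTomato NSC replicate 3 for all 18 enzymes (38.1% of all genes), in EYFP NSC replicate 3 for 12 (41.4%) and in hippocampal NSC replicate 3 for 16 (36.9%). The mean of the 18 enzymes was 11.52 ± 0.16 in tdTomato, 11.28 ± 0.14 in EYFP and 11.52 ± 0.15 in hippocampal NSCs (SD, n = 3), and 9.60 ± 0.02, 9.89 ± 0.02 and 10.57 ± 0.18 in the astrocytes. Traced astrocytes thus varied little, while among hippocampal astrocytes replicate 3 held the lowest value of all 18 enzymes (35.1% of all genes) and replicate 1 the highest of 17 (41.7%). The cause was not tested.

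Each library was expressed as its deviation from its group mean, and each of the 18 sterol enzymes was set against the mean of the others. The correlation ranged from 0.896 to 0.996 over the 9 NSC libraries (median 0.97) and from 0.30 to 0.97 over the 9 astrocyte libraries (median 0.82). Other members were set against the mean of all 18. The correlations share the same libraries, so this is a description. Stard4 (0.99), Elovl6 (0.97), Fads2 (0.97), Acly (0.96), Srebf2 (0.92) and Scd1 (0.92) followed the sterol mean among NSC libraries, and Srebf1 (0.02) and Scap (-0.09) did not. Fads2 and Scd1 therefore followed the sterol enzymes between NSC passages, although Fads2 rose and Scd1 changed little in traced lines on differentiation. How common such correlations are over all genes was not tested. Abca1 went the opposite way to the sterol mean, at -0.78 among NSCs and -0.54 among astrocytes. In astrocytes the sterol mean had an SD of 0.18 in the hippocampal line and 0.02 in each traced line. All astrocyte correlations given here therefore rest mainly on the 3 hippocampal libraries.

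**Figure D4:**
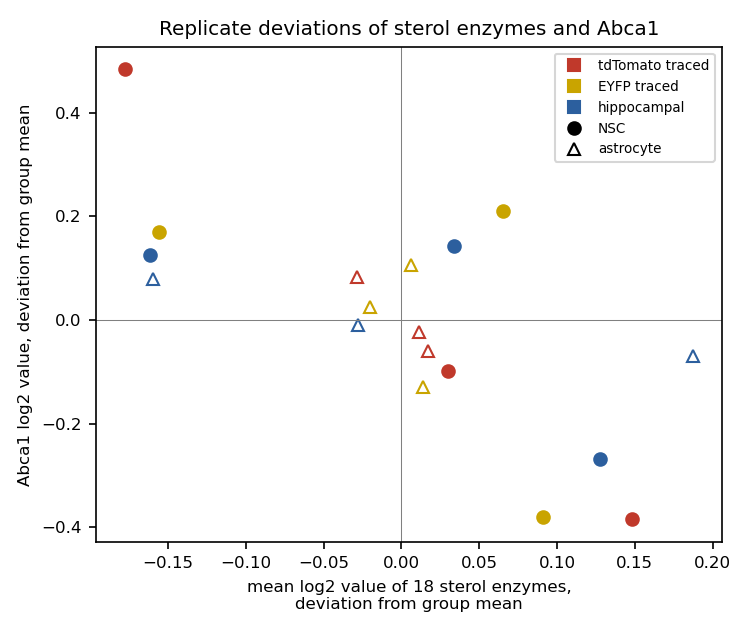
Deviation of each of the 18 libraries from its group mean in Abca1 (y axis, log2) against the deviation in the mean of 18 sterol enzymes (x axis, log2). Circles are NSC libraries, open triangles are astrocyte libraries and colours mark the lines. The NSC libraries run from upper left to lower right (r = -0.78 over 9 libraries).

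Around the members, 52 of 55 listed genes of neighbouring steps passed the filter, and 27, 30 and 28 of them rose and 15, 14 and 16 fell in the tdTomato, EYFP and hippocampal lines. Over all genes tested 39.9%, 38.2% and 39.0% rose and 38.5%, 37.0% and 37.3% fell. Of 11 genes of fatty acid oxidation 10, 9 and 7 rose and 0, 0 and 2 fell, with medians of 0.66, 0.53 and 0.27. Ppara, a receptor that drives oxidation genes, rose by 0.88 and 0.43 in the traced lines and changed by -0.59, a fall, in the hippocampal line. Among 19 tested genes of other fatty acid synthesis and activation 8, 10 and 10 rose and 8, 8 and 7 fell, in the tdTomato line near the shares over all genes. Thrsp, a lipogenic regulator, rose most (2.98, 3.63 and 1.79). Elovl2, an elongase of polyunsaturated fatty acids, changed by -1.07, -0.75 and -1.90, and Hsd17b12, of the same elongation cycle, by -1.02, -0.84 and -0.70.

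The lists that follow are small, and their counts stand beside 39.9%, 38.2% and 39.0% of all genes tested that rose and 38.5%, 37.0% and 37.3% that fell. Of 7 tested genes of oxysterol formation and other efflux 4, 4 and 4 rose and 1, 2 and 0 fell. Cyp46a1, which makes 24-hydroxycholesterol, rose by 2.47, 2.23 and 2.51. Nceh1, a cholesterol ester hydrolase, changed by -1.24 and -1.04 in the traced lines and by 0.06, not called, in the hippocampal line. The isoprenoid branch, which leaves the route at farnesyl diphosphate, split: 2, 2 and 2 of 7 rose and 3, 2 and 5 fell, from Pdss1 (-0.90, -0.84 and -1.13) to Fnta (0.73, 0.70 and 0.56). Of 4 genes that process SREBP or degrade sterol enzymes 2 rose and 2 fell in each line, with Mbtps2, the second SREBP protease, at -0.71, -0.65 and -0.66 and Rnf139 at 0.38, 0.42 and 0.24. Of 4 electron donors to the sterol enzymes 1, 3 and 3 rose and 1, 0 and 0 fell, with Cyb5r3 at 0.61, 0.66 and 1.49 and Por at -0.13, 0.10 and 0.23.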

How the data were processed

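Per the submitters' processing notes and the study's methods, the authors trimmed single-end reads with Trimmomatic 0.36, aligned them with STAR 2.5.2, estimated gene counts with RSEM 1.3.0 (the notes' version, from which the methods differ) on the Ensembl GRCm38 transcriptome and normalised with DESeq2 1.18.1 in R 3.4.3. The deposited values are log2, which may be a regularized log that draws weak genes towards their mean, but the transform is not named in the sources used here. The labels give a minimum of 25000000 reads per sample. Counts could not be recovered, so the exact depth of each library and its counting error cannot be stated.

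A means model of the 6 groups was fitted with limma 3.58.1 (R 4.3.3, trend in the variance) to 18 libraries and 15448 genes, in place of the study's count model, with Benjamini-Hochberg adjustment over all genes and a threshold of 0.05. The fit was tested on simulated data. Members and lists were chosen with earlier results of these data known. In each of 6 classes by role the 2 members with the largest mean change are given library by library. For each line comparison the 3 largest called differences are named, some with library values of a single fate only (Fdft1, Stard4, Idi1 and Soat1). Other members are given by single values or, as Scd1, by library. Pathway lists are given by counts with their largest rise and fall, except that the largest rise among the fatty acid oxidation genes is not reported here. Sequences are RefSeq GRCm38.p6, and overlaps and shared 75-base stretches come from the reference annotation of GRCm38, which may differ from the authors' annotation. Alternatives left out each library in turn or changed the filter, normalisation, pseudocount, trend, groups fitted or replicate block.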

Additional observations from a re-analysis of the deposited data

Results flagged for a closer look

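The change from NSC to astrocyte differed between lines in the genes below, as tested by the difference of the changes in limma (Benjamini-Hochberg over 15448 genes). The first set compares the hippocampal line with the mean of both traced lines, and the value is the hippocampal change minus the traced change on the log2 scale.

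Among the sterol enzymes the difference was 1.87 in Hsd17b7, 1.52 in Fdft1, 1.17 in Msmo1, 1.09 in Idi1 and 1.03 in Sc5d. It was 0.99 in Sqle, 0.94 in Cyp51, 0.88 in Fdps, 0.65 in Acat2 and 0.57 in Nsdhl. Smaller values were seen in Hmgcs1 (0.48), Ebp (0.39), Lss (0.35) and Pmvk (0.27). The calls on Ebp, Lss and Pmvk were lost without hippocampal NSC replicate 2 or hippocampal astrocyte replicate 1 (limma adjusted p = 0.0542 to 0.113). Those on Lss and Pmvk were also lost with each library centred on its median (0.0515 and 0.0936), and that on Pmvk in further settings. Outside these enzymes, Stard4 differed by 1.23, Insig2 by 0.72, Srebf2 by 0.58 and Acly by 0.53, followed by Insig1 (0.38), Srebf1 (0.35), Fasn (0.30) and Nr1h2 (0.30). The change was more negative in the hippocampal line in Scd1 (-0.76), Acss2 (-0.38) and Npc1 (-0.23).

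The second set compares both traced lines, and the value is the tdTomato change minus the EYFP change. Abca1 (0.80) and Fads1 (0.29) had the more positive change in the tdTomato line. The more negative change was in Idi1 (-0.94), Fdps (-0.83), Msmo1 (-0.80), Cyp51 (-0.77), Acat2 (-0.70) and Hsd17b7 (-0.59). Further sterol enzymes were Dhcr7 (-0.52), Lss (-0.49), Mvk (-0.49), Fdft1 (-0.48), Sc5d (-0.45), Hmgcs1 (-0.44), Nsdhl (-0.42) and Sqle (-0.41). The calls on Hsd17b7, Dhcr7, Lss, Mvk, Hmgcs1, Nsdhl and Sqle were lost without tdTomato NSC replicate 3 or EYFP NSC replicate 2 (limma adjusted p = 0.052 to 0.122). Those on Mvk, Nsdhl and Sqle were also lost with no filter (0.0725, 0.0765 and 0.0741). The other genes were Insig1 (-0.72), Stard4 (-0.61), Elovl6 (-0.55), Srebf2 (-0.50), Acly (-0.48), Acss2 (-0.35) and Soat1 (-0.29). The call on Acss2 was lost with no filter (limma adjusted p = 0.0572), and that on Soat1 without tdTomato NSC replicate 2 (0.0503). Both sets use the same traced libraries and are not independent of each other. With 3 libraries a group, single libraries were not tested as outliers.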

How the results depend on the processing

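No called difference changed direction in any alternative. Of 240 called single differences, 26 lost their call under at least 1 other filter, scaling, pseudocount, variance or grouping setting, and 42 without at least 1 library. Most of these were differences between lines (22 of 83) or between changes (13 of 48), while 8 of 109 called changes from NSC to astrocyte lost their call in either way. The number of members that differed between tdTomato and EYFP NSCs was 15, and leaving out 1 library moved it between 9 and 23. The number whose change differed between these lines was 23, and 14 to 24 without 1 library. That of members that rose in the tdTomato line was 8, and 5 to 8. Leaving out 1 library gave 29 to 32 for the difference of hippocampal from traced astrocytes and 12 to 18 in NSCs. The replicate number as a block changed 6 of 360 calls. It lost Npc2 in the tdTomato line (limma adjusted p = 0.0569) and gained Lss (0.20) and Nr1h3 (-0.40) between hippocampal and traced NSCs, Lss (0.24) and Stard4 (0.22) between traced NSCs, and Ebp (-0.45) between the changes of the traced lines. Which number stands for which passage is not given. Same-numbered libraries of 1 line and both fates had a mean r of -0.02 over 9 pairs, and those of 1 fate in different lines 0.11 (0.01 to 0.31) over 18 pairs, not over 0.1 in every pair, so they are not treated as pairs. The exact depth of each library is not known, the spread is between passages of single lines, and changes of weak genes such as Nr1h3 may be understated.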

Other observations

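Abcg1, the member below the filter, was listed at 0.98, 1.21 and 1.23 in tdTomato, 0.94, 0.65 and 1.19 in EYFP and 0.99, 0.68 and 1.70 in hippocampal NSCs, and at 1.78, 1.01 and 1.26, 1.17, 1.25 and 1.03 and 2.30, 2.31 and 2.51 in the astrocytes. The 3 hippocampal astrocyte libraries were the highest of the 18, at a level where values of this form may be drawn towards the mean of the gene. Acat3, which shares sequence with Acat2, changed by 3.99 in the hippocampal line and by -0.02 and 0.51 in the tdTomato and EYFP lines.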
